A study of Mus musculus with 19 samples.

Results

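Aminoacyl-tRNA synthetases are the enzymes that join each amino acid to its transfer RNA. Their genes were taken by symbol from a deposited table of RNA levels in mouse cells: 1 capital letter followed by ars or ars2 and nothing else, together with Eprs, Farsa and Farsb. The rule found 37 genes of the 24016 in the table, 20 for cytosolic enzymes and 17, whose symbols end in 2, for mitochondrial enzymes, and no measured value entered the choice. RNA was sequenced in 5 libraries, in a series of 19 samples that also holds ChIP-seq peaks for Oct4, Ring1B and Cbx7 and DamID-seq peaks for Nup153 and Oct4. The control was 1 library of E14 mouse embryonic stem cells (ESC) that carried a lentiviral non-target hairpin (shCtrl). The knockdown was 2 libraries of E14 ESC, 1 with the hairpin shNup153 #2 and 1 with shNup153 #4, both against Nup153, a protein of the nuclear pore. All 3 ESC libraries shared lentiviral transduction, at least 4 days of selection in puromycin at 2 µg/ml, medium with LIF, and growth on irradiated feeder fibroblasts. The neural progenitors (NeuP) were 2 libraries, r1 and r2, of cells made through embryoid bodies with Noggin at 0.5 µg/ml and grown in N2 medium with FGF2 and EGF at 20 ng/ml each. The labels name neither a hairpin nor a starting line for NeuP, so cell type, medium, hairpin virus, selection and possibly line differed together between NeuP and the control and cannot be told apart. Separate cultures are not stated for libraries of a group, and p-values here therefore measure only how far these libraries differ, which may be technical.

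The cytosolic enzymes charge the transfer RNAs that translate messages from nuclear genes. The mitochondrial enzymes are also encoded in the nucleus, are imported, and charge the transfer RNAs that read the few messages of mitochondrial DNA. Most amino acids have a separate gene for each compartment, but Gars and Kars, for glycine and lysine, serve both, and Eprs joins glutamate and proline with a single protein. Many of the cytosolic genes are known to be switched on by ATF4, the transcription factor of the response to amino acid shortage, which binds a composite C/EBP-ATF site.

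The core of that site, written TGATGNAA and searched on both strands, was looked up in RefSeq promoters (build GRCm38.p6, 250 bases before to 50 after the start), because members that moved together in the RNA may share promoter letters. Promoters of 27 members were matched, 13 cytosolic and 14 mitochondrial. The core was found in 5 of the 13 cytosolic promoters (38.5%, Wilson 95% interval 17.7 to 64.5%) and in 0 of the 14 mitochondrial ones (upper limit 21.5%), against 4.51% of all 27025 genes with a promoter and 3.97% of all 32851 promoters of 300 bases. All 5 belong to the 13 cytosolic genes listed as known to be induced with ATF4, of which 8 had a promoter. The form TGATGCAA, which is contained in the first motif, stood in 4 of the 5 and in 1.03% of all genes. Windows of 30 bases follow for 5 of the matches, 1 per gene, 5′ to 3′ on the strand of the gene, with the match in capitals. Positions count from the transcript start, and TTGCATCA and TTTCATCA are the motif read on the other strand.
Aars, chr8:111033840-111033869, plus strand, match from 10: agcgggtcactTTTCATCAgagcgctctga
Gars, chr6:55037960-55037989, plus strand, match from -30: tggctgcgctaTTTCATCAtgcaccgggcg
Iars, chr13:49682126-49682155, plus strand, match from 8: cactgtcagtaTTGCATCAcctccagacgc
Tars, chr15:11399655-11399684, minus strand, match from -15: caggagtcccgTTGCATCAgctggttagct
Yars, chr4:129189895-129189924, plus strand, match from 4: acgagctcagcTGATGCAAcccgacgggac
In Aars, Iars, Tars and Yars a match lies within 15 bases of the start. Aars also holds a match from -112 that is not shown, and it is this one that has the TGATGCAA form. A match is a description of letters and not a measured binding site. Among the members with no matched promoter were Cars, Hars, Hars2, Lars, Nars, Pars2, Rars, Vars and Wars.

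The RNA values are FPKM, fragment counts divided by transcript length and library size, so levels can be compared between genes. The depth recovered from the table ran from 24.3 to 32.2 M fragments per library. Nup153, the targeted gene, stood at 39.4 FPKM in control ESC, 20.9 and 17.4 with hairpins #2 and #4 and 12.8 and 29.1 in NeuP. The labelled cell types had their markers. In NeuP 8 of 8 pluripotency genes were called lower, where 24.9% of all tested genes were. Called higher were 6 of 9 neural progenitor genes, where 18.3% of all tested genes were. The pluripotency genes summed to 8.03 and 7.40 FPKM in NeuP against 1570 to 1772 in ESC. Of 9 feeder fibroblast genes, Fn1, which ESC also express, gave 131 to 138 of the 137 to 147 FPKM in each ESC library, Lum was at 0 in all 3 and Twist2 was at 0.03 or less. In NeuP the 9 fibroblast genes summed to 54.4 FPKM in r1 and 108 in r2. Of the 8 that were tested, 3 were called higher (37.5%) and 2 lower (25%) against the control. Of all tested genes 18.3% were called higher and 24.9% lower. Fn1 fell to 15.4 and 12.6 there. Higher in r2 were Col3a1 at 24.9 and 46.1 and Postn at 3.60 and 23.2. So were Dcn at 0.331 and 10.3 and Lum at 3.46 and 8.48. The rest of the list, Col1a1, Col1a2, Thy1 and Twist2, together added a small and similar FPKM to both sums. The NeuP libraries also differed in glial and neuronal markers. A list of 6 astrocyte and oligodendrocyte genes summed to 260 FPKM in r1 and 24.3 in r2, led by Gfap at 173 and 0.563, and Mog was at 0 in both. A list of 6 neuron genes summed to 244 and 133 FPKM, of which Map2 gave 224 and 118. The defining gene Rbfox3 was at 0.823 and 0.103, while Dcx at 5.21 and 9.23, Syt1 at 0.185 and 1.14 and Snap25 at 0.501 and 1.49 were higher in r2. Tubb3, the remaining gene of the list, was lower in r2, as Map2 and Rbfox3 were.

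In control ESC the cytosolic genes were expressed far above the mitochondrial ones, with no overlap between the groups. The most abundant was Aars, the alanine enzyme, at 283 FPKM and rank 101 of the table, followed by the dual genes Kars and Gars at 201 and 195. Nars for asparagine, Qars for glutamine and Eprs stood at 124, 110 and 99.9, and the other 14 cytosolic genes ran from Wars for tryptophan at 39.6 to Yars for tyrosine at 77.3 FPKM. The mitochondrial genes ran from Wars2 at 0.531 FPKM, or about 59 fragments, to Iars2 at 28.4, with a median of 9.15 against 62.5 for the cytosolic genes. The lowest cytosolic gene also stood above the highest mitochondrial one in both knockdown libraries, at 36.7 (Cars) against 23.8 FPKM (Tars2) in hairpin #2 and at 40.4 (Cars) against 38.6 (Iars2) in hairpin #4. In NeuP the groups overlapped: Vars fell within the mitochondrial range at 7.97 FPKM in r1, where Iars2 was at 18.9, and Cars at 17.8 in r2, where Iars2 was at 34.6. Neighbours in the order of the control levels cannot be separated, since the control has no replicate and Kars in hairpins #2 and #4, for example, was 199 and 211 FPKM, a spread wider than the gap between Kars and Gars in the control.

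**Figure D1:**
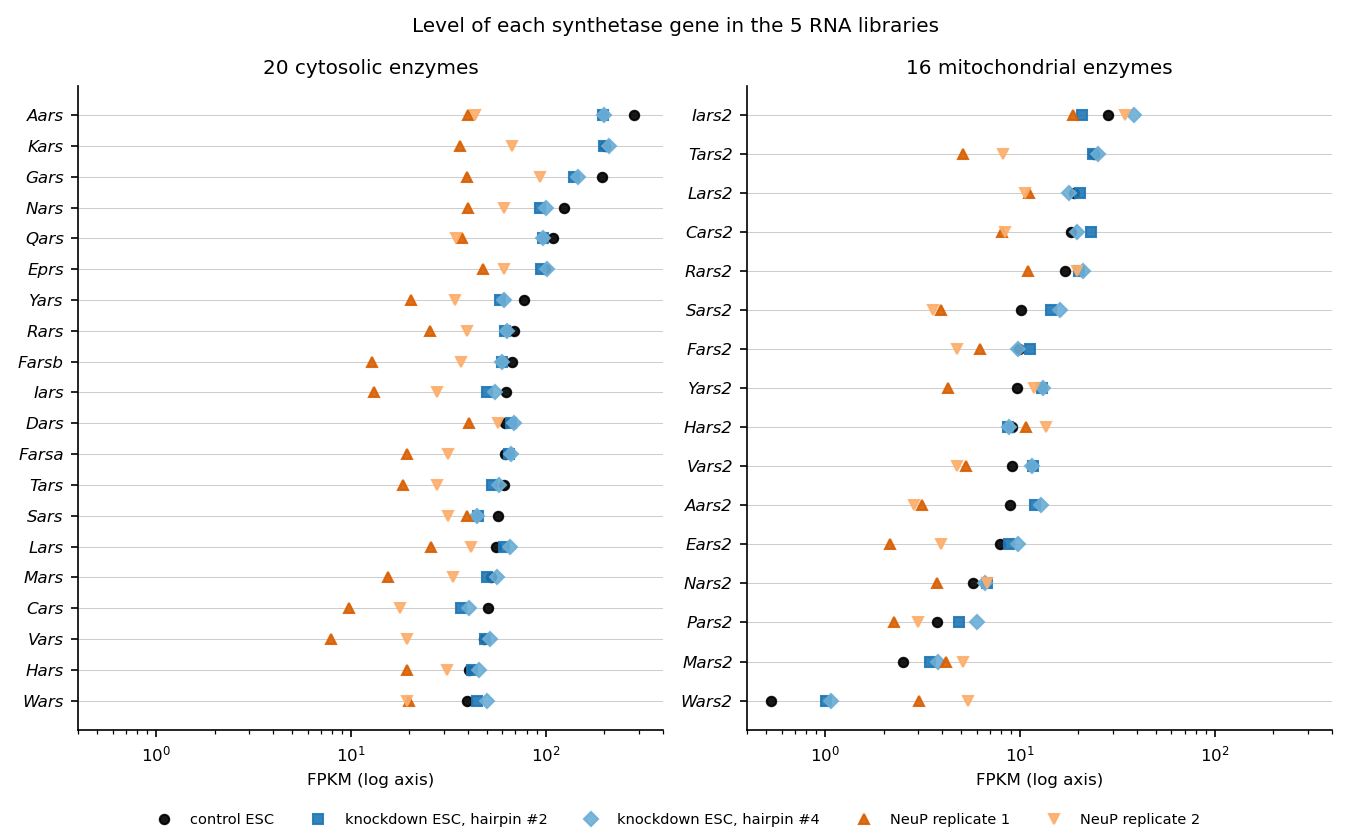
FPKM (log axis) of 20 cytosolic (left) and 16 mitochondrial (right) synthetase genes in the 5 RNA libraries, sorted by the control level; each point is 1 library. The triangles of NeuP lie to the left of all 3 ESC libraries for the 20 cytosolic genes and for 9 of the mitochondrial ones, and to the right for Wars2, Mars2 and Hars2.

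The comparison of NeuP with control ESC asked how these genes differ between pluripotent and neural progenitor cells. Both NeuP libraries lay below all 3 ESC libraries for all 20 cytosolic genes and for 9 of the 17 mitochondrial genes, where 46.4% of the 13750 tested genes did so. The share among the 1735 tested genes with control levels in the range of the cytosolic members, a background added after the data were seen, was 73.3%. Among the 9771 in the range of the mitochondrial members, added likewise, it was 45.3%, beside 52.9% of those members. With limma-trend on log2(FPKM + 1), 8 cytosolic and 6 mitochondrial genes were called lower at a Benjamini-Hochberg adjusted p under 0.05, where 24.9% of all tested genes were. Only 1 member was called higher, Wars2, where 18.3% of all tested genes were. The median log2 change was -1.35 over the cytosolic genes and -0.40 over the mitochondrial genes, beside -0.26 over all tested genes. It was -1.02 over tested genes at the cytosolic control levels and -0.21 over those at the mitochondrial ones. Quantile normalization moved the median of all genes to -0.06 and that of the cytosolic genes to -1.03, and all 20 stayed below 0. The calls rested on single libraries: none of them held without either knockdown library, whereas more cytosolic genes were called lower without either NeuP library. Each of these fits left 1 library in a group and cost a residual degree of freedom. The cause of the shift was not tested. In bulk RNA, fewer cells that express a gene and less RNA per cell cannot be told apart.

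Aars (mm9, chromosome 8, 113557742 to 113579469, plus strand) had the largest change of all members. Its level was 283, 197 and 199 FPKM in the control, hairpin #2 and hairpin #4 and 40.0 and 43.4 in NeuP, where the mean was 41.7 ± 2.43 (SD, n = 2). The change was -2.74 ± 0.20 on the log2 scale (SE, limma adjusted p = 0.00384), and the gap to the ESC libraries was many times the gap between the NeuP libraries. Kars, the lysine enzyme of cytosol and mitochondria, was at 201, 199 and 211 FPKM in ESC and at 36.4 and 67.2 in NeuP. Its change was -2.0 ± 0.44 (adjusted p = 0.0328, limma). Here the NeuP libraries differed from each other but did not approach the ESC range.

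Qars, for glutamine, and Wars, for tryptophan, fell to nearly the same level in both NeuP libraries. Qars went from 110, 97.3 and 97.4 FPKM in ESC to 37.4 and 34.6 (log2 change -1.58 ± 0.20, limma adjusted p = 0.00971). Wars went from 39.6, 44.5 and 49.9 FPKM to 20.0 and 19.4 (-0.97 ± 0.20, adjusted p = 0.0282, limma). The other cytosolic genes called lower were Cars for cysteine at -1.85, Yars for tyrosine at -1.51, Tars for threonine at -1.39 and Nars for asparagine at -1.30. Their limma adjusted p-values were 0.0338, 0.0453, 0.0360 and 0.0473. Among these genes Cars was the lowest, at 50.4, 36.7 and 40.4 FPKM in ESC and 9.77 and 17.8 in NeuP.

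For 12 cytosolic genes the change was not called, although both NeuP libraries lay below the ESC libraries for each. In several of them r1 stood far below r2. Vars, for valine, was at 48.2, 48.9 and 51.8 FPKM in ESC but at 7.97 and 19.5 in NeuP (-1.86 ± 0.57, limma adjusted p = 0.0685). Gars, for glycine, was at 195, 140 and 146 FPKM in ESC and at 39.7 and 93.9 in NeuP (-1.66 ± 0.58, adjusted p = 0.0933, limma). The 2 subunits of the phenylalanine enzyme did not keep step: Farsa had 19.4 and 31.5 FPKM in r1 and r2 and Farsb 12.9 and 36.6, from 61.7 and 66.9 in the control. Iars, for isoleucine, was at 13.1 and 27.6 FPKM in NeuP and 62.8 in control ESC (-1.67 ± 0.50, adjusted p = 0.0656, limma).

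The smallest differences among the cytosolic genes were in Dars, for aspartate, at 62.2, 66.1 and 69.1 FPKM in ESC and 40.6 and 57.1 in NeuP (-0.36 ± 0.29, adjusted p = 0.357, limma). Sars, Hars, Lars and Eprs had log2 changes of -0.68, -0.69, -0.75 and -0.88, and Rars, Mars and Farsa -1.09, -1.16 and -1.28, none of them called. Across the cytosolic genes r2 was above r1 for 17 of 20, the exceptions being Qars, Sars and Wars. Across all members it was 29 of 37, where 53.1% of all tested genes had r2 above r1. The NeuP replicates thus differ in the level of the whole set as well as in the glial, neuronal and fibroblast markers given above, of which the fibroblast sum, like the synthetases, was higher in r2. The part of these markers in the NeuP result and in the gap between r1 and r2 was not tested.

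**Figure D2:**
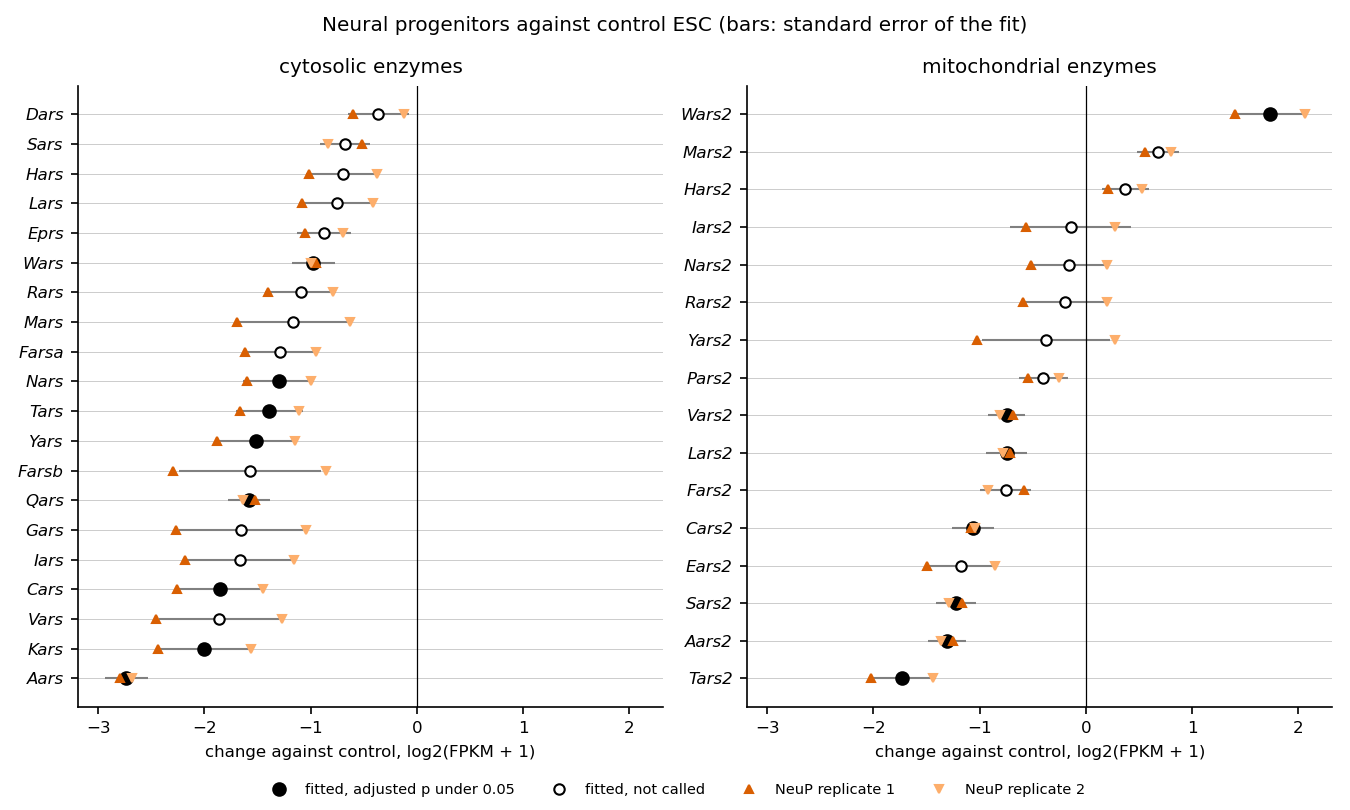
Change of 36 genes in NeuP against the control library on the log2(FPKM + 1) scale, with the fitted value and its standard error (circle and bar, filled where the limma adjusted p was under 0.05) and the 2 NeuP libraries as triangles. The cytosolic genes (left) all lie below 0, from Dars at -0.36 to Aars at -2.74, while the mitochondrial genes (right) lie on both sides, from Tars2 at -1.73 to Wars2 at 1.73.

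The mitochondrial genes went in different directions. Tars2, for threonine, fell most, from 23.9, 23.8 and 25.0 FPKM in ESC to 5.13 and 8.20 in NeuP (-1.73 ± 0.32, limma adjusted p = 0.0220). Aars2, for alanine, fell from 8.89, 11.9 and 12.8 FPKM to 3.15 and 2.85 (-1.31 ± 0.18, adjusted p = 0.0117, limma). Sars2, for serine, fell from 10.1, 14.4 and 16.0 FPKM to 3.96 and 3.57 (-1.23 ± 0.19, adjusted p = 0.0149, limma). In Aars2 and Sars2 the NeuP libraries lay close together, in Tars2 r2 was above r1, and in each of these 3 genes both lay below all ESC libraries. Cars2, Lars2 and Vars2, for cysteine, leucine and valine, fell by 1.06, 0.75 and 0.75 on the log2 scale, with limma adjusted p-values of 0.0239, 0.0480 and 0.0395.

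Wars2, the mitochondrial tryptophan enzyme, was the only member called higher. Its gene (mm9, chromosome 3, 98945013 to 99024126, plus strand) stood at 0.531, 1.02 and 1.08 FPKM in the 3 ESC libraries and at 3.04 and 5.41 in NeuP, or about 59 fragments in the control and 428 and 575 in NeuP. The change was 1.73 ± 0.33 (limma adjusted p = 0.0245), and it missed the threshold with no filter on low values (0.0822), with the length trend removed (0.0534) and without either knockdown library (0.154 for each). Its size ran from 0.73 with a pseudocount of 5 to 2.90 by voom on recovered reads. Mars2, for methionine, at 2.52, 3.46 and 3.82 FPKM in ESC and 4.18 and 5.11 in NeuP, and Hars2, for histidine, at 9.15, 8.66 and 8.80 in ESC and 10.7 and 13.6 in NeuP, also lay above all ESC libraries. These were 3 of 37 members with that order, where 31.4% of all tested genes had it, and neither Mars2 nor Hars2 was called (adjusted p = 0.0617 and 0.247, limma).

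The other mitochondrial genes did not separate from ESC or did so without a call. Ears2, for glutamate, was at 7.90, 8.80 and 9.84 FPKM in ESC and 2.15 and 3.93 in NeuP (-1.18 ± 0.34, adjusted p = 0.0608, limma). Fars2, for phenylalanine, and Pars2, for proline, had changes of -0.76 and -0.40. For Iars2, Nars2, Rars2 and Yars2, r1 lay below and r2 above the control, so that Yars2, for tyrosine, had 9.68 FPKM in control ESC and 4.26 and 11.9 in NeuP.

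The cytosolic and mitochondrial enzymes can be compared as summed FPKM per library. The cytosolic sum was 1818, 1563 and 1643 FPKM in the control, hairpin #2 and hairpin #4 and 530 and 811 in NeuP. The mitochondrial sum was 190, 220 and 238 FPKM in ESC and 109 and 158 in NeuP. The set as a whole held 0.617% of all FPKM in the control and 0.256% and 0.376% in NeuP. The ratio of the cytosolic to the mitochondrial sum was 9.58 in the control, 7.12 and 6.89 in the hairpins and 4.84 and 5.12 in NeuP. It was therefore lower in each of the other libraries than in the single control, and lowest in NeuP. Without the dual genes Gars and Kars the order of the groups was the same, at 7.49, then 5.57 and 5.39, then 4.14 and 4.10. But with medians in place of sums NeuP, at 4.47 and 5.10, overlapped the hairpins, at 5.06 and 4.86. A lower ratio in NeuP is not particular to the synthetases. Tested genes at the cytosolic control levels had a median log2 change of -1.02 there, and those at the mitochondrial levels -0.21. The members had -1.35 and -0.40.

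The ratio was also taken gene by gene in 16 pairs of a cytosolic and a mitochondrial enzyme for the same amino acid. In these, Eprs stands against both Ears2 and Pars2. The ratio was below the single control in both NeuP libraries for 12 pairs and in both hairpins for 13. NeuP was not the lowest in every pair that fell. Eprs over Pars2, for example, was 26.5 in the control, 19.4 and 16.9 in the hairpins and 21.0 and 20.4 in NeuP. The widest shift was in the tryptophan pair, with Wars at 74.5 times Wars2 in the control, 43.7 and 46.5 times in the hairpins and 6.58 and 3.58 times in NeuP. Aars over Aars2 was 31.9 in the control, 16.5 and 15.6 in the hairpins and 12.7 and 15.2 in NeuP. In the isoleucine pair the order itself turned: Iars was 2.21 times Iars2 in the control and 0.695 and 0.798 times in NeuP. The pairs that did not follow in NeuP were Eprs with Ears2, Sars with Sars2 and Tars with Tars2, whose ratios stood above the control in both libraries, and Lars with Lars2, whose libraries lay on both sides. In the serine pair the ratio was 5.64 in the control and 10.0 and 8.84 in NeuP.

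**Figure D3:**
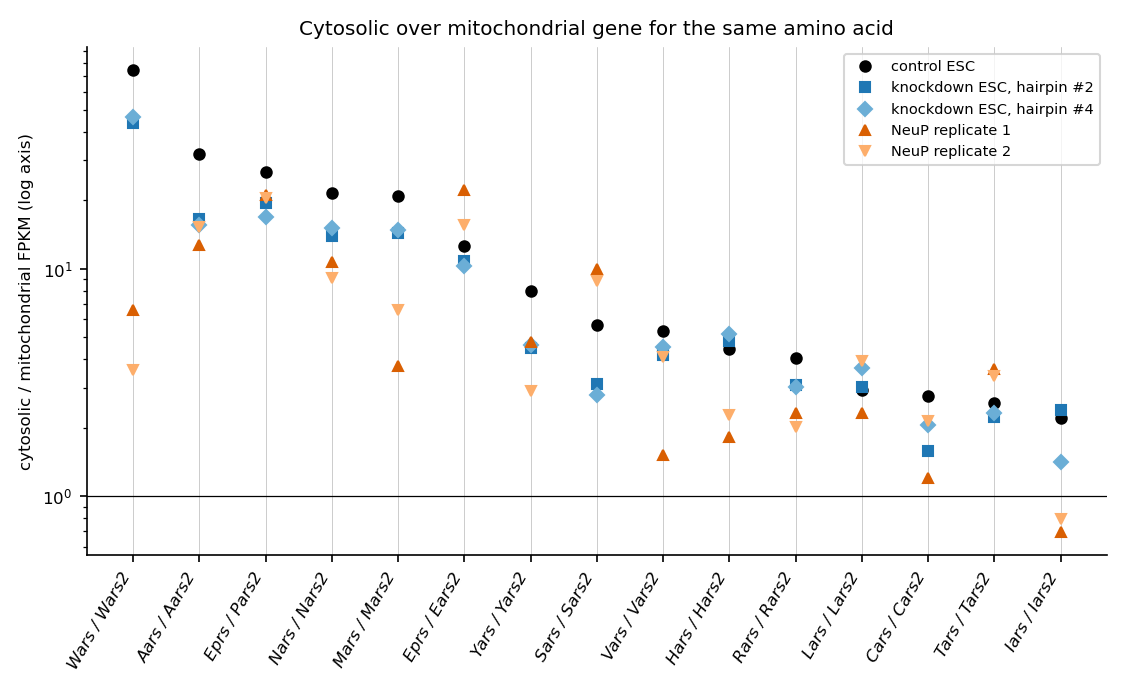
Ratio of cytosolic to mitochondrial FPKM (log axis) for 15 gene pairs that charge the same amino acid, with 1 point per library and a line at equal levels. Wars over Wars2 spans 74.5 in the control to 3.58 in NeuP r2, and only Iars over Iars2 in NeuP lies below 1.

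The comparison of the knockdown with the control asked whether lowering Nup153 in ESC goes with other levels of these genes. No synthetase gene was called, and 0% of the 13750 tested genes were called in either direction by limma at an adjusted p under 0.05. Nup153 itself, the targeted gene, was not called (-1.01 ± 0.55, unadjusted p = 0.144, adjusted p = 0.897, limma). The fit thus missed the lowering of the target, and a lack of calls does not show a lack of change. At an unadjusted p under 0.05 there were 2 members and 814 genes in all. voom on recovered reads also called 0 genes, and with no filter on low values 230 genes passed but no member did. Without the NeuP libraries in the fit, the smallest adjusted p of a member was 0.0822. In FPKM, 11 of the 20 cytosolic genes and 1 of the 17 mitochondrial genes lay below the control in both hairpins, where 29.5% of all tested genes did. Above the control in both hairpins were 6 cytosolic and 12 mitochondrial genes, where 55% of all tested genes were.

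The median log2 change was -0.14 over the cytosolic and 0.25 over the mitochondrial genes, beside 0.08 over all tested genes. Genes at the same control levels were split in the same direction. Among the 1735 genes in the control range of the cytosolic members, 56.7% lay below the control in both hairpins and the median was -0.09, close to the 55.0% and -0.14 of the members. Among the 9771 genes in the range of the mitochondrial members, 59.6% lay above the control in both hairpins with a median of 0.13, beside 70.6% and 0.25 for the members. Below the control in both hairpins were 25.8% of these genes and 5.88% of the members, which is 1 gene. This difference was not tested. After quantile normalization the medians were -0.08 and 0.19, and 11 cytosolic and 5 mitochondrial genes had a change below 0, beside 12 and 1 before it.

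Among the mitochondrial genes, most differences had the same sign in both hairpins. Sars2 had 10.1 FPKM in control ESC and 14.4 and 16.0 with the hairpins (0.54 ± 0.19, unadjusted p = 0.0493, adjusted p = 0.840, limma). Aars2 was at 8.89 FPKM and 11.9 and 12.8, with a log2 change of 0.43. Pars2, Wars2, Yars2 and Mars2 had changes of 0.43, 0.42, 0.40 and 0.40, Vars2, Rars2, Cars2, Ears2 and Nars2 from 0.19 to 0.32, and Hars2, the only one below the control in both hairpins, -0.06. For Fars2, Iars2, Lars2 and Tars2 the hairpins lay on opposite sides of the control, with Iars2 at 28.4 FPKM in control ESC and 20.9 and 38.6 with the hairpins.

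Among the cytosolic genes Aars differed most, with 283 FPKM in control ESC and 197 and 199 with the hairpins (-0.51 ± 0.20, unadjusted p = 0.0666, adjusted p = 0.847, limma). The hairpins were close to each other, at 198 ± 1.40 FPKM (SD, n = 2), but the control is a single library. Gars, at 195 and 140 and 146 FPKM, had a change of -0.44, and Cars, Yars, Sars and Nars had changes of -0.38, -0.37, -0.35 and -0.34. Iars, Qars, Farsb, Rars and Tars lay below the control in both hairpins by -0.26 to -0.14. Wars, Lars, Dars, Hars, Farsa and Vars lay above it in both, with changes of 0.25, 0.18, 0.12, 0.10, 0.09 and 0.06. For Eprs, Kars and Mars the hairpins lay on opposite sides.

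**Figure D4:**
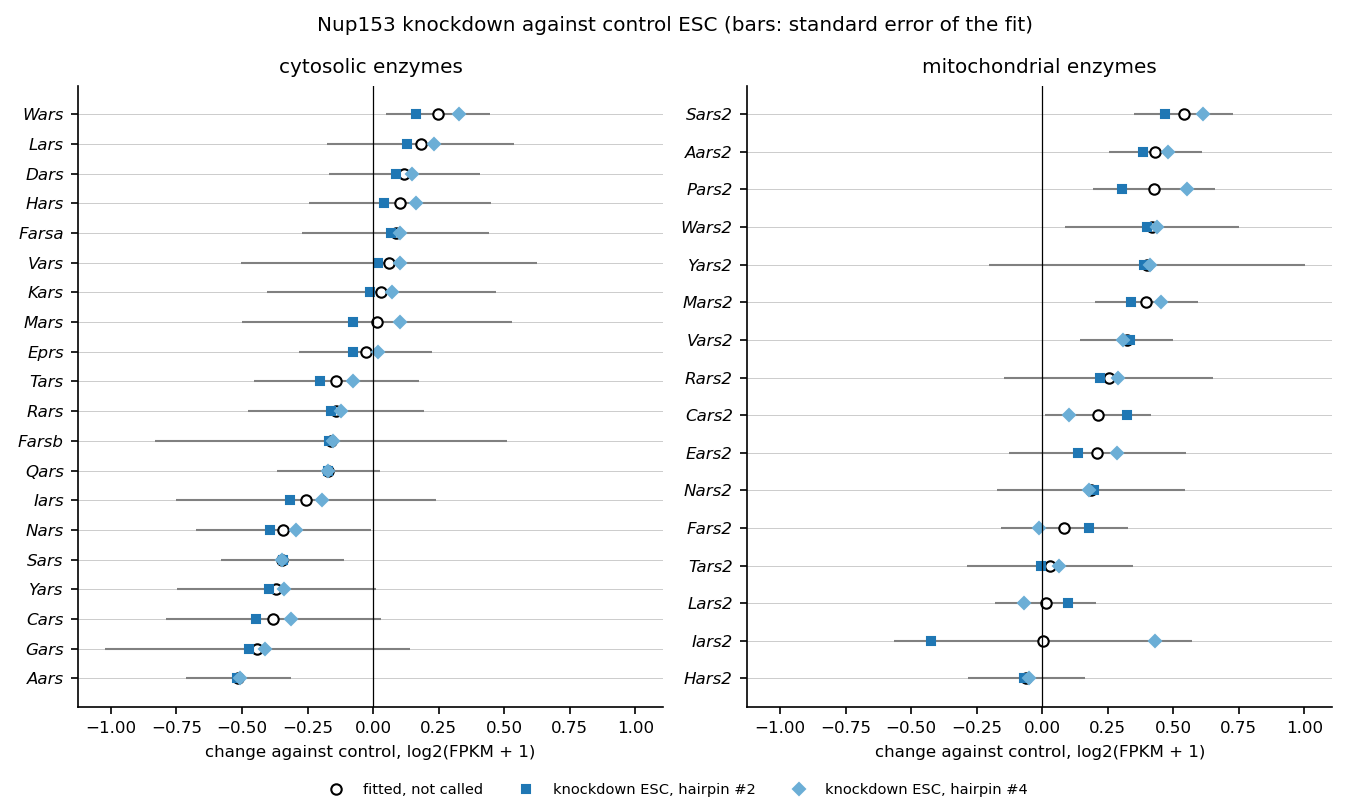
Change of 36 genes in the knockdown against the control library on the log2(FPKM + 1) scale, with the fitted value and its standard error (open circle and bar) and the 2 hairpins as squares and diamonds; no gene was called. Aars at -0.51 is the lowest cytosolic gene (left), and Hars2 at -0.06 is the lowest mitochondrial gene (right).

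The 13 cytosolic genes listed as known to be induced with ATF4 are Aars, Cars, Eprs, Gars, Iars, Lars, Mars, Nars, Sars, Tars, Vars, Wars and Yars. In the knockdown 4940 of all 13750 tested genes had a change below 0. Tested genes at the control levels of the cytosolic members had a median of -0.09. The median of the 13 listed genes was -0.26, with 9 of 13 below 0. That of the other 7 cytosolic genes was 0.03, with 3 of 7 below 0. In NeuP the medians were -1.39 and -1.28, and 6 of 13 (46.2%) and 2 of 7 (28.6%) were called lower, where 24.9% of all tested genes were. Atf4 itself stood at 199.97 FPKM in control ESC, 137 and 142 with the hairpins and 85.7 and 169 in NeuP, with changes of -0.51 (adjusted p = 1) and -0.73 (adjusted p = 0.282) in limma. Atf4 thus stood below the control in all 4 other libraries, and no change was called. Both comparisons use the same control library, so a high or low value in it enters both.

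Of 34 other genes known to be induced by ATF4 in amino acid shortage, 15 were called lower (44.1%) and 5 higher (14.7%) in NeuP, with a median of -1.06, where 24.9% and 18.3% of all tested genes were. In the knockdown 0 were called and 26 of 34 lay below 0, with a median of -0.26, and 4 had an unadjusted p under 0.05. Of all 13750 tested genes 4940 lay below 0, with a median of 0.08, and 814 had an unadjusted p under 0.05. Asns, asparagine synthetase, was at 189, 137 and 146 FPKM in ESC and fell to 12.4 and 35.4 in NeuP (-3.10 ± 0.67, adjusted p = 0.0326, limma). Ddit3, which encodes the stress factor CHOP, stood at 233 FPKM in control ESC, 58.8 and 37.9 with the hairpins and 12.5 and 6.25 in NeuP. Trib3, a pseudokinase that restrains ATF4, was at 22.5, 12.8 and 12.4 FPKM in ESC and 0.517 and 0.403 in NeuP (-4.01 ± 0.17, adjusted p = 0.00238, limma). The transporter gene Slc1a5 and the translation repressor gene Eif4ebp1 fell by 5.07 and 4.19 on the log2 scale in NeuP. The list did not move as 1 group: Psat1, of serine synthesis, was at 133, 84.7 and 94.5 FPKM in ESC and 133 and 154 in NeuP, and Phgdh of the same route at 12.9, 10.6 and 12.6 and then 36.1 and 10.6. The core TGATGNAA stood in 10 of the 29 promoters matched for this list (34.5%).

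A list of 9 genes held regulators of that response, with Myc and Mycn added. Mycn was called lower in NeuP (11.1%) and Myc and the kinase gene Eif2ak1 higher (22.2%). Of all tested genes, 24.9% were called lower and 18.3% higher. Mycn was at 21.7, 32.0 and 34.3 FPKM in ESC and 2.72 and 1.16 in NeuP, and Myc, which drives growth genes, at 0.132, 0.268 and 0.427 and then 7.23 and 29.6. In the knockdown 0 of the 9 were called.

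Within the cytosol, 8 enzymes (Dars, Eprs, Iars, Kars, Lars, Mars, Qars and Rars) sit in the multi-tRNA synthetase complex. Their median change in NeuP was -1.13, with 2 called lower, Kars and Qars, beside -1.45 and 6 called lower among the 12 outside it. These are 25% and 50% of the genes, where 24.9% of all tested genes were called lower, so the share in the complex was at the background. In the knockdown the medians were -0.01 and -0.25. The scaffold genes of the complex also stood lower in NeuP than in ESC. Aimp1 was at 100.5, 77.6 and 77.5 FPKM in ESC and fell to 42.7 and 44.2 in NeuP (-1.19 ± 0.19, adjusted p = 0.0165, limma). Aimp2 was at 24.5, 31.0 and 34.1 and then 8.28 and 16.1 (adjusted p = 0.140), and Eef1e1 at 70.4, 64.0 and 63.2 and then 11.7 and 45.8 (adjusted p = 0.220), so that r1 was again the lower NeuP library.

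Other genes of translation give the setting. Of 75 tested genes of cytosolic ribosomal proteins, 45 were called lower (60%, beside 24.9% of all tested genes) and 0 higher in NeuP, with a median of -1.46, close to that of the cytosolic synthetases. Among those called, Rpl36, Rplp2 and Rpl12 fell most, by 3.00, 2.97 and 2.94 on the log2 scale, though ribosomal protein genes and Eef1a1 have near-identical copies with which reads may be shared. Of 7 genes with Eef1 or Eef2 symbols, a list of cytosolic elongation factors, 4 were called lower (57.1%, beside 24.9% of all tested genes). Among those called was Eef1a1, at 2386 FPKM in control ESC, 1829 and 1600 with the hairpins and 860 and 939 in NeuP. Eef1e1, of the scaffold list, is counted here too. Of 77 genes of mitochondrial ribosomal proteins, 22 were called lower (28.6%, near the 24.9% of all tested genes) and 2 higher, with a median of -0.71, and of 12 mitochondrial translation factors 0 were called by limma or voom, 4 at an unadjusted p under 0.05, with a median of -0.29. In the knockdown the medians of these 4 lists were -0.33, -0.17, 0.07 and 0.14, and 0 genes were called, with 2, 0, 2 and 0 at an unadjusted p under 0.05 and 0 by voom.

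Of 15 further genes of making, editing or clearing charged transfer RNA, 3 were called higher and 3 lower in NeuP, 20% in each direction, near the 18.3% and 24.9% of all tested genes. Gatc, a subunit of the amidotransferase that makes the mitochondrial glutaminyl-tRNA for which no separate synthetase exists, rose from 2.49, 3.50 and 4.23 FPKM in ESC to 10.7 and 17.9 in NeuP (2.09 ± 0.36, adjusted p = 0.0199, limma). Its partner Gatb was at 2.92, 3.95 and 5.15 FPKM in ESC and 3.12 and 4.82 in NeuP. Qrsl1, of the same enzyme, went the other way, at 16.4, 16.1 and 16.2 FPKM in ESC and 2.64 and 6.25 in NeuP, without a call. Prorsd1, related to an editing domain of prolyl-tRNA synthetases, fell from 3.80, 3.63 and 3.71 FPKM to 0.107 and 0.892. Sephs2, which makes the selenium donor for selenocysteine, fell from 23.5, 28.3 and 30.6 FPKM to 5.72 and 10.4.

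Several members share a start region with another gene, and the transcripts of the pairs named in this paragraph do not overlap. A start on the opposite strand within 1 kb was present for 9 of 37 members (24.3%), 6 mitochondrial and 3 cytosolic, and for 15.0% of all tested genes. Hars and Hars2 are such a pair, 75 bases apart. They went apart in NeuP, Hars from 40.5, 41.8 and 45.5 FPKM in ESC to 19.5 and 31.1 and Hars2 from 9.15, 8.66 and 8.80 to 10.7 and 13.6. Sars2 and Mrps12, a mitochondrial ribosomal gene, start 187 bases apart. In the knockdown Mrps12 was level, at 28.7, 28.7 and 28.4 FPKM, while Sars2 stood above the control, and in NeuP both were lower, Mrps12 at 8.66 and 8.37. Other pairs were Ears2 with Ubfd1, Fars2 with Lyrm4, Kars with Terf2ip, Rars2 with Orc3 and Yars with S100pbp.

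Mars, for methionine, overlaps Ddit3 by 68 bases at their ends on opposite strands. Mars was at 52.5, 49.8 and 56.5 FPKM in ESC while Ddit3 went from 233 to 58.8 and 37.9, so the 2 values did not follow each other in the knockdown. The libraries were strand-specific per the labels, but the sources used here do not say whether counting used the strand, which also touches Yars and Iars2, each overlapped on the other strand by an expressed gene (C77080 and Rab3gap2). The table's transcripts for Farsb and Yars2 are non-coding RefSeq records, so their lengths, and with them their FPKM, may not be those of the protein-coding message.

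The deposited peak lists gave a readout of the start sites that the RNA rule did not use. Of the 37 transcript starts, 0 had a peak of Oct4 within 2 kb in the control, in hairpin #2 or by DamID, where 1.1%, 1.11% and 3.94% of all tested genes did, and 0 had a peak of the Polycomb protein Cbx7, where 13.0% did (0 of 37 allows up to 9.41%, Wilson). Nup153 DamID peaks lay at 4 starts (10.8%, beside 8.91% of all tested genes), those of Cars2, Hars, Hars2 and Vars. Hars and Hars2 share 1 start region, and Cars2 and both of these lay inside a peak while Vars was 319 bases from one. In the knockdown 0 of all 13750 tested genes were called, so that test cannot tell these 4 genes from others.

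Ring1B, another Polycomb protein, had peaks at 3 of 37 starts in control ESC (Hars, Hars2 and Vars), 11 in hairpin #2, 1 in hairpin #4 (Aars) and 4 in NeuP (Fars2, Farsb, Rars and Wars2). These are 8.11%, 29.7%, 2.7% and 10.8% of the members, beside 10.2%, 31.4%, 11.0% and 15.0% of all tested genes. Among the 11 in hairpin #2 were Ears2, Hars, Hars2, Iars2, Kars, Lars, Mars2, Qars, Sars and Yars2. The libraries behind the 4 lists held 4.99, 30.8, 9.95 and 33.2 M tags per the file headers, 1 library each, so the counts are not comparable between lists, and each share lay near or below that of all genes. Wars2, the member called higher in NeuP, had a Ring1B peak 43 bases from its start in NeuP.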

How the data were processed

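Reads were processed by the authors. Per the submitters' processing notes the tools were CASAVA 1.8.2, Bowtie2 2.1.0, STAR 2.2.0c, HOMER 4.6 and edgeR (no version given), with build mm9. The RNA values were deposited as FPKM for 1 transcript per symbol. ChIP peaks were called with HOMER findPeaks, per the file headers, against an IgG library of ESC, also for NeuP. For the DamID lists, the sources used here do not say how replicates were combined.

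Low FPKM values multiplied by transcript length were whole numbers of reads within 0.1 for 100% of 837 to 1055 values per library, which gave the depths. log2(FPKM + 1) was fitted for the 13750 genes that reached 1 FPKM in any library, with limma 3.58.1 in R 4.3.3 (limma-trend, 3 groups, two-sided, Benjamini-Hochberg over all genes tested, 2 residual and 1.74 prior degrees of freedom). All 37 members passed the filter. The fit lends the single control the spread of the other groups and treats both hairpins as replicates. Fold changes on this scale understate those of low genes. voom on the recovered reads called 3450 genes lower and 2463 higher in NeuP, beside 3420 and 2516. Peaks and promoter motifs were counted in Python 3.11.15 (pandas 2.3.3, numpy 2.4.6, scipy 1.17.1), and intervals cover counting error only. Figures were drawn with matplotlib 3.10.9.

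The members and lists were chosen with earlier results of these data known, so no p-value is given over a list. The rule names every member, but some results are not reported here. From the other lists the text names the complex scaffold, Atf4, Ddit3, Asns, Trib3, Psat1, Phgdh and Nup153, and up to 3 genes called with the largest change in NeuP and 3 with the largest in the knockdown. Genes that neighbour a member, cell type markers and Qrsl1 were named after their values were seen. Alternatives were other pseudocounts, filters and scalings, recovered reads, other reference libraries, each library left out and a narrower peak window.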

Additional observations from a re-analysis of the deposited data

How the results depend on the processing

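The number of cytosolic genes called lower in NeuP, 8 as reported, was 3 with no filter on low values, 5 after quantile normalization, 18 with all 3 ESC libraries as reference, and from 0 to 20 with 1 library left out. For the mitochondrial genes called lower, 6 as reported, leaving out 1 library gave 0 to 11, and for those called higher, 1 as reported, 0 to 4; the latter count was 0 with no filter, 2 after quantile normalization and 0 with the length trend removed. Leaving out a knockdown library and leaving out a NeuP library both cost the fit 1 residual degree of freedom. The cause of the shifts was not tested. Quantile normalization moved the split of all genes in NeuP from 3420 lower and 2516 higher to 2865 and 2900. With no filter, 55 genes were called higher and 175 lower in the knockdown, in place of 0. No member was called in the knockdown under any setting run.

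The mitochondrial median in NeuP was -0.69 with all ESC libraries as reference. In the knockdown the cytosolic median was -0.083 after quantile normalization, and the mitochondrial median was 0.27 with a pseudocount of 0.1, 0.18 with 5, 0.19 after quantile normalization, 0.27 with the length trend removed, 0.27 by voom and 0.25 to 0.31 with 1 library left out. The cytosolic to mitochondrial ratio, on average 9.58 in the control, 7.01 in the knockdown and 4.98 in NeuP, was 7.49, 5.48 and 4.12 without Gars and Kars, and 6.84 and 4.96 in the control and knockdown from medians. No member start had a Ring1B peak of hairpin #4 within 1 kb (0%).

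For single genes, leaving out 1 library moved the change in NeuP across 0 for Iars2 (-0.57 to 0.28), Yars2 (-1.02 to 0.27), Rars2 (-0.59 to 0.20) and Nars2 (-0.51 to 0.20), positive without r1 and negative without r2. It also turned positive after quantile normalization for Iars2 (0.11) and with the length trend removed for Rars2 (0.0060). In the knockdown, where no gene was called, leaving out 1 library gave -0.070 to 0.097 for Lars2, -0.42 to 0.43 for Iars2, -0.0050 to 0.064 for Tars2, -0.077 to 0.020 for Eprs, -0.011 to 0.18 for Fars2, -0.075 to 0.10 for Mars and -0.012 to 0.074 for Kars. Quantile normalization turned Lars2 (-0.035), Iars2 (-0.015), Tars2 (-0.0058), Eprs (0.050) and Fars2 (-0.037), and removing the length trend turned Lars2 (-0.021) and Iars2 (-0.022). No paired analysis was possible because the RNA groups share no replicate numbers from the labels: the knockdown libraries carry hairpin numbers, the control carries none, and the numbered DamID samples were deposited as joint lists. The only control library could not be left out.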
